A study of Mus musculus with 6 samples.

Results

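The 8 genes of C-type natriuretic peptide signalling described here are *Nppc*, *Furin*, *Ostn*, *Npr1*, *Npr2*, *Npr3*, *Prkg1* and *Prkg2*. They were chosen by symbol, through the Ensembl identifiers of the deposited table, and all 8 were found among its 47729 genes. RNA was sequenced from proximal tibial epiphyses, a sample that mixes bone, cartilage and marrow and takes in the articular surface, the secondary ossification centre, the growth plate and the metaphysis below it. The Control group was 3 mice of a random-bred line on the CD-1 background, labelled Control (ICR), and the LS1 group was 3 mice of Longshanks 1, bred from the same background for a long tibia relative to body mass. All 6 mice were 14 days old, came from different families of generation 13, and gave 1 library each from their pooled epiphyses. The sex of the mice is not given in the labels, and LS1 is 1 selected line, so an effect of selection and other differences that arose within that line cannot be told apart.

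C-type natriuretic peptide (CNP) is a local growth signal of cartilage. The receptor encoded by *Npr2* is a guanylyl cyclase that makes cyclic GMP when CNP binds, and cyclic GMP activates the protein kinases encoded by *Prkg1* and *Prkg2*, the latter of which is needed for normal hypertrophy of growth plate chondrocytes. The receptor encoded by *Npr3* has no cyclase domain and is known for binding and clearing natriuretic peptides, and mice that lack it grow long bones. Osteocrin, the product of *Ostn*, binds this clearance receptor and can spare CNP from it.

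The peptide and the clearance receptor are both short in coding terms, which the reference sequences show. *Nppc* codes for 126 residues, and the mature peptide is held by the last 22 codons, read on the minus strand of GRCm38 at chr1:86669664-86669732, within exon 2 of 3. The capitals mark the codons of the cysteines at positions 6 and 22 of the peptide, which close its ring, and the stop codon ends the line.
CNP coding end: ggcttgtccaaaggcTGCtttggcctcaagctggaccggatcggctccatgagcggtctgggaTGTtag
The longest complete coding transcripts of *Npr1* and *Npr2* hold 1057 and 1047 codons, while that of *Npr3* holds 536. The last 37 codons of *Npr3* code for the short tail inside the cell, where the other receptors carry their kinase-like and cyclase domains. They lie in exons 7 and 8 of 8, on the minus strand at chr15:11845177-11846299, and the capitals mark the stop codon.
Npr3 coding end: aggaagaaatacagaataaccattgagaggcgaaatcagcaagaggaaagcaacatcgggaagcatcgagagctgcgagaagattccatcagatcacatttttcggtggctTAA

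The libraries held 68803249 to 76581954 reads in Control and 82227711 to 88745366 in LS1, so each LS1 library was deeper than each Control library. The values, called normalized counts here, are read counts after division by the size factor of each library. The sampled tissue was checked against markers, and all 18 chondrocyte markers, all 9 osteoblast and osteocyte markers and all 7 osteoclast markers were detected in every library. For the comparison of lines, limma was run on log2(normalized count + 1) for the 19308 genes that averaged 20 reads or more. Fold changes on this scale understate those of genes with few reads. Of these genes, 0.0725% had an adjusted p-value under 0.05 in either direction.

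*Npr3* was the gene of the group that differed most between the lines, and its difference was several times that of the CNP receptor *Npr2*. Both cyclic GMP-dependent kinase genes also had every LS1 library above every Control library. The transcripts of the signalling receptors, of the peptide itself, of *Furin* and of *Ostn* overlapped between the groups. All 8 genes passed the filter on reads, 7 of them with a higher mean log2 value in LS1. With limma, 0 of the 8 passed an adjusted p of 0.05. An unadjusted p-value under 0.05 was found for 3 (*Npr3*, *Prkg1* and *Prkg2*), all with a higher mean in LS1, against 12.9% of all genes tested in either direction and 7.08% with a higher mean. The count at the adjusted threshold was 1 with DESeq2 on the recovered reads (*Npr3*), where 2.38% of genes passed, and 0 with both edgeR (0.0363% of genes passed) and limma-voom (0.0414%). The median log2 fold change of the 8 genes was 0.38, against 0.0054 over all genes tested.

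**Figure D1:**
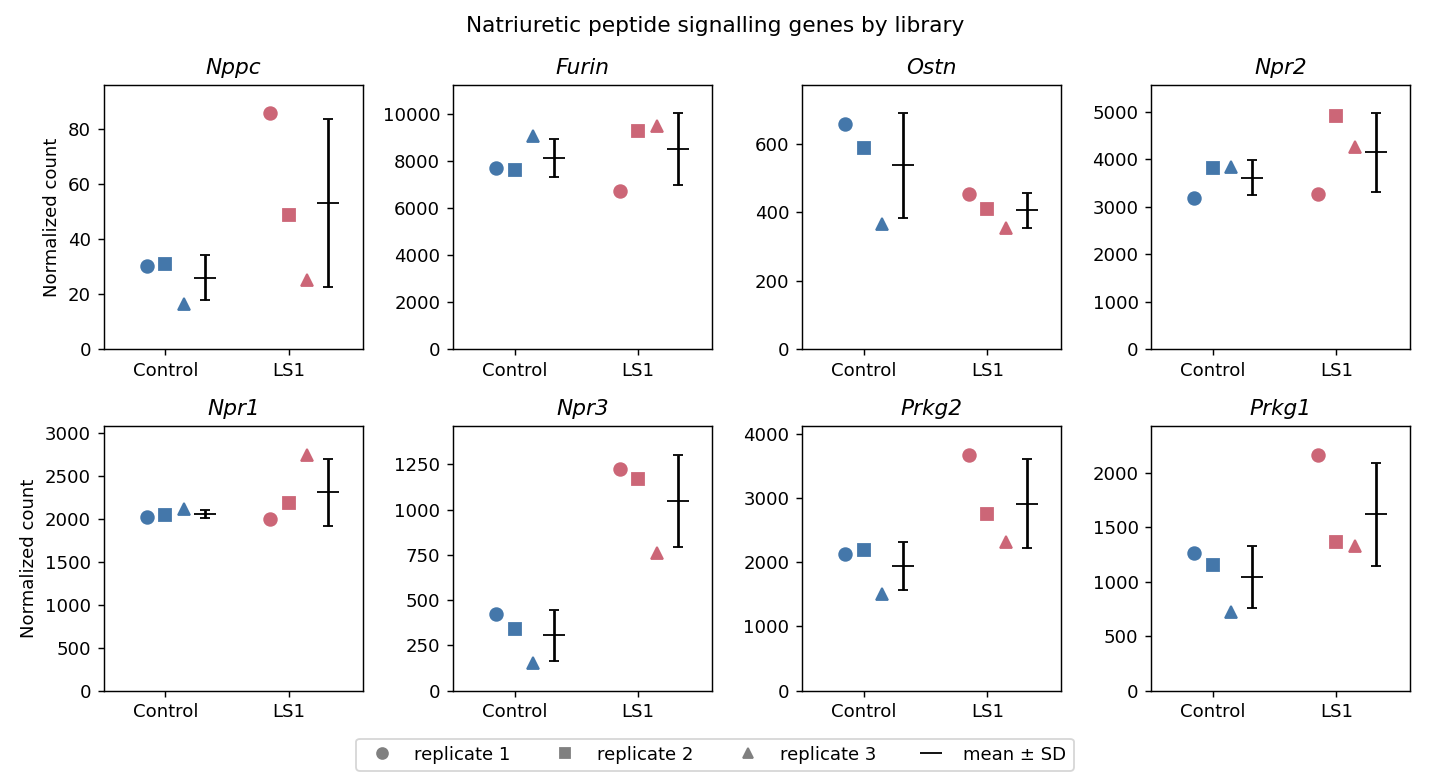
Normalized counts (y axis, from 0, with its own range in each panel) of the 8 genes in the 3 Control (blue) and 3 LS1 (red) libraries, with the mean and SD of each group in black. In *Npr3*, *Prkg1* and *Prkg2* the LS1 libraries all lie above the Control libraries, with the clearest gap for *Npr3*, from 426 in the highest Control library to 758 in the lowest LS1 library.

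The ligand gene *Nppc* (ENSMUSG00000026241, chromosome 1 of GRCm38 from 86666291 to 86670571) was at the lowest level of the 8 genes. Its normalized counts were 30.3, 31.0 and 16.6 in Control and 85.7, 48.7 and 25.2 in LS1. LS1 replicate 3 lay within the range of Control. The log2 fold change was 0.89 (standard error, SE, 0.49, 95% interval -0.19 to 1.98, limma adjusted p = 0.472). Between 15 and 90 reads per library stood behind these values, and the interval takes in both no difference and a doubling. Without LS1 replicate 1 the difference was 0.47.

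*Furin* (chromosome 7 from 80388585 to 80405436) encodes the protease that cuts the CNP precursor, along with many other secreted proteins. Its normalized counts were 7680.4, 7625 and 9053 in Control and 6731, 9249 and 9489.8 in LS1. The lowest of the 6 libraries was LS1 replicate 1 and the highest LS1 replicate 3, so the groups overlapped over the whole range of Control. The log2 fold change of 0.052 had a 95% interval from -0.29 to 0.40 (limma adjusted p = 0.918). Its direction turned when LS1 replicate 2 or LS1 replicate 3 was left out, to -0.018 and -0.037.

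*Ostn* (chromosome 16 from 27307489 to 27351212), the ligand of the clearance receptor, was the 1 gene of the group with a lower mean in LS1. It had 658, 588 and 366 normalized counts in Control and 455, 409.9 and 354 in LS1. Control replicate 3 lay among the LS1 libraries. LS1 differed from Control by -0.37 on the log2 scale (SE 0.25, 95% interval -0.91 to 0.18, limma adjusted p = 0.557), or by -0.20 without Control replicate 1 and -0.62 without Control replicate 3. Osteocrin is made by osteoblasts and by skeletal muscle. The 9 skeletal muscle markers all had lower means in LS1, with summed normalized counts of 9008 to 21710.3 in Control and 4307 to 12628 in LS1, while 5 of 9 osteoblast and osteocyte markers did. No marker of either list was at 0 in any library, and the part of these tissues in the *Ostn* values was not tested. In bulk RNA, fewer cells of a type and less RNA per cell cannot be told apart.

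The cyclase receptors overlapped between the groups, and the 95% intervals of both took in no difference. *Npr2* (ENSMUSG00000028469, chromosome 4 from 43631935 to 43651244) had 3195, 3820.3 and 3830.3 normalized counts in Control and 3268, 4904 and 4264 in LS1. On the log2 scale LS1 exceeded Control by 0.18 (SE 0.17, 95% interval -0.18 to 0.55, limma adjusted p = 0.676). *Npr1* (chromosome 3 from 90450591 to 90465866), the receptor of the atrial and brain peptides, had 2014, 2043 and 2109 normalized counts in Control and 1993, 2182 and 2746 in LS1. Its 3 Control libraries were the closest set of all 8 genes, with a coefficient of variation of 2.38%, against 17.0% in LS1. Its log2 fold change of 0.15 had a 95% interval from -0.19 to 0.50 (limma adjusted p = 0.709). For both receptors the interval leaves out a doubling and a halving. Single libraries moved these small differences, that of *Npr2* to 0.096 without Control replicate 1, 0.34 without LS1 replicate 1 and 0.051 without LS1 replicate 2. That of *Npr1* moved to 0.25 without LS1 replicate 1 and 0.021 without LS1 replicate 3.

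*Npr3* (ENSMUSG00000022206) lies on chromosome 15 from 11839896 to 11907287, on the minus strand. Its normalized counts were 426, 339 and 153 in Control and 1223, 1169.6 and 758 in LS1. The groups did not overlap, and the spread was wide within Control, where replicate 3 was well below the other libraries. The mean in LS1 was 3.43 times that in Control. On the log2 scale the difference was 1.87 (SE 0.36, 95% interval 1.07 to 2.67), with an unadjusted p of 0.000395 and an adjusted p of 0.128 from limma. By its p-value *Npr3* stood at rank 59 of the 19308 genes, and 0.596% of genes had a larger log2 fold change. An exact two-sided permutation test over the mice gave p = 0.1, the smallest that 3 against 3 allow. DESeq2 gave 1.77 (SE 0.32, DESeq2 adjusted p = 1.94e-05) and edgeR the same size of 1.77 with an adjusted p of 0.164 from edgeR. Without LS1 replicate 3 *Npr3* passed the threshold of limma, with a log2 fold change of 2.09 (limma adjusted p = 0.0298). That fit called 324 genes, against 14 with all libraries. With any other library left out the limma adjusted p of *Npr3* was 0.104 to 0.333. The smallest log2 fold change among these fits was 1.43, without Control replicate 3 (limma adjusted p = 0.157). These values are from whole epiphyses. By qPCR on growth plate tissue alone, from mice of a later generation, the study reports lower *Npr3* in LS1 than in Control.

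The start of *Npr3* is shared with *Gm5144*, an RNA gene on the opposite strand whose body overlaps it over 769 bases, 321 of them in exons of both. The exons of *Npr3* cover 9389 bases in all. Whether the counting used strand is not given in the sources used here, so reads from these shared bases cannot be assigned to 1 strand. *Gm5144* is not among the genes of the deposited table, so it could not be analysed.

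**Figure D2:**
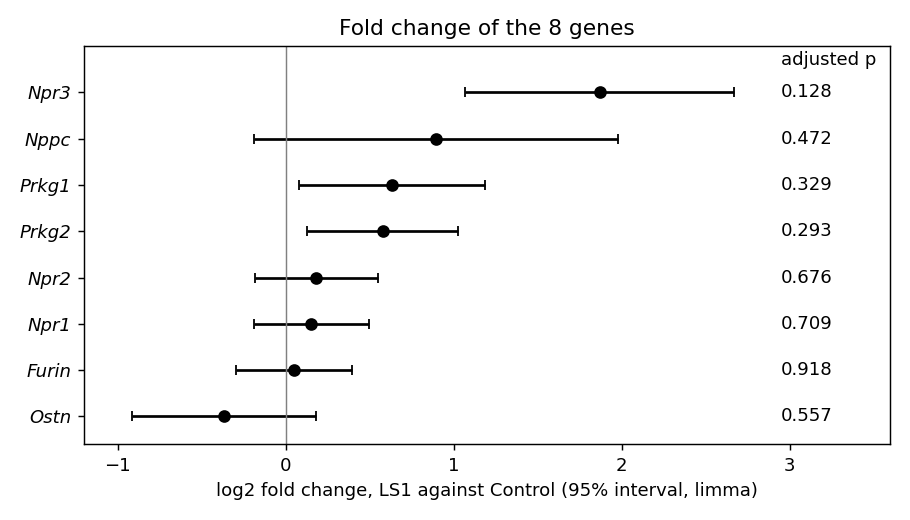
The log2 fold change of each gene between LS1 and Control (x axis, points) with its 95% interval from limma (bars) and the adjusted p at the right. The intervals of *Npr3*, *Prkg1* and *Prkg2* lie above 0 and the adjusted p-values run from 0.128 for *Npr3* to 0.918 for *Furin*.

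The kinase genes had means in LS1 above those in Control by a similar factor. *Prkg2* (chromosome 5 from 98929773 to 99037351), which encodes the membrane-bound kinase, had 2133, 2183 and 1503 normalized counts in Control and 3674, 2746 and 2309 in LS1. On the log2 scale the difference was 0.58 (SE 0.20, 95% interval 0.13 to 1.03, limma adjusted p = 0.293). *Prkg1* (chromosome 19 from 30564489 to 31765033), which encodes the soluble kinase, had 1261, 1149.6 and 720.0 in Control and 2165, 1359 and 1325 in LS1. This was a log2 difference of 0.63 (SE 0.25, 95% interval 0.08 to 1.19, limma adjusted p = 0.329), which became 0.39 without Control replicate 3 and 0.40 without LS1 replicate 1. For each kinase the lowest LS1 library was close to the highest Control library. With *Npr3*, 3 of the 8 genes had all LS1 libraries above all Control libraries, against 10.3% of all genes tested, and 0 of the 8 had them all below, against 8.94%. Of all 6 libraries, 4 of the 8 genes (*Nppc*, *Npr3*, *Prkg1* and *Prkg2*) were lowest in Control replicate 3 and highest in LS1 replicate 1. Some genes of the marker and pathway lists below had this order too, and its share among all genes tested was not counted. The sum of the osteoclast markers ran the other way within each group. This summed normalized count was highest in replicate 3, at 404099 in Control and 421697 in LS1, and was lowest of all in LS1 replicate 1, at 245969. The most abundant markers dominate the sum, and not every marker of the list had this order. A sum highest in replicate 3 of both groups was not particular to osteoclast markers. Markers of hypertrophic chondrocytes, of endothelium, and of smooth muscle and pericytes had it too, the last at 34958 in Control and 34267 in LS1. The part of these differences between mice in the values of the 4 genes was not tested.

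Per kilobase of exon, which allows genes to be set beside each other, *Furin* was highest in Control at 885 ± 88.1 normalized counts per kb (SD, n = 3 mice). *Npr2* followed at 775 ± 77.9, and these ranges nearly met without overlap. *Npr1* was at 429.7 ± 10.2, *Ostn* at 377 ± 107 and *Prkg2* at 361 ± 70.6 (SD, n = 3), and neighbours in this order overlapped. *Prkg1* was lower, at 96.1 ± 26.3 per kb. *Npr3* at 32.6 ± 14.9 and *Nppc* at 24.9 ± 7.80 per kb (SD, n = 3) were lowest and overlapped each other. In LS1 the order was *Furin* at 925 ± 166 per kb, *Npr2* at 888 ± 177, *Prkg2* at 542 ± 129.8, *Npr1* at 482 ± 81.9, *Ostn* at 285 ± 35.8, *Prkg1* at 149 ± 43.8, *Npr3* at 112 ± 27.1 and *Nppc* at 51.1 ± 29.3 (SD, n = 3). There *Npr3* overlapped the range of *Prkg1*, which it did not in Control.

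The balance of the receptors was then compared within each library, where the scaling between libraries has no influence. *Npr3* made up 3.94%, 2.82% and 1.27% of the summed per-kb level of the 3 receptor genes in Control and 10.4%, 7.64% and 5.15% in LS1. By this measure the clearance receptor was the rarest receptor transcript in all 6 libraries, and its share was higher in each LS1 library than in any Control library. The length used takes in every annotated exon of a gene, and which transcripts were expressed was not examined. *Npr2* exceeded *Npr3* by a factor of 15.1, 22.7 and 50.5 in Control and of 5.38, 8.43 and 11.3 in LS1, per kb. The log2 ratio of *Npr3* to *Npr2* was higher in LS1 by 1.69 (exact two-sided permutation test, p = 0.1, the smallest possible). The ratio of *Npr2* to *Npr1*, by contrast, had a mean of 1.80 ± 0.15 in Control and 1.86 ± 0.39 in LS1 (SD, n = 3), and that of *Prkg1* to *Prkg2* was 0.263 ± 0.028 and 0.273 ± 0.025. The latter ratios overlapped between the groups.

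**Figure D3:**
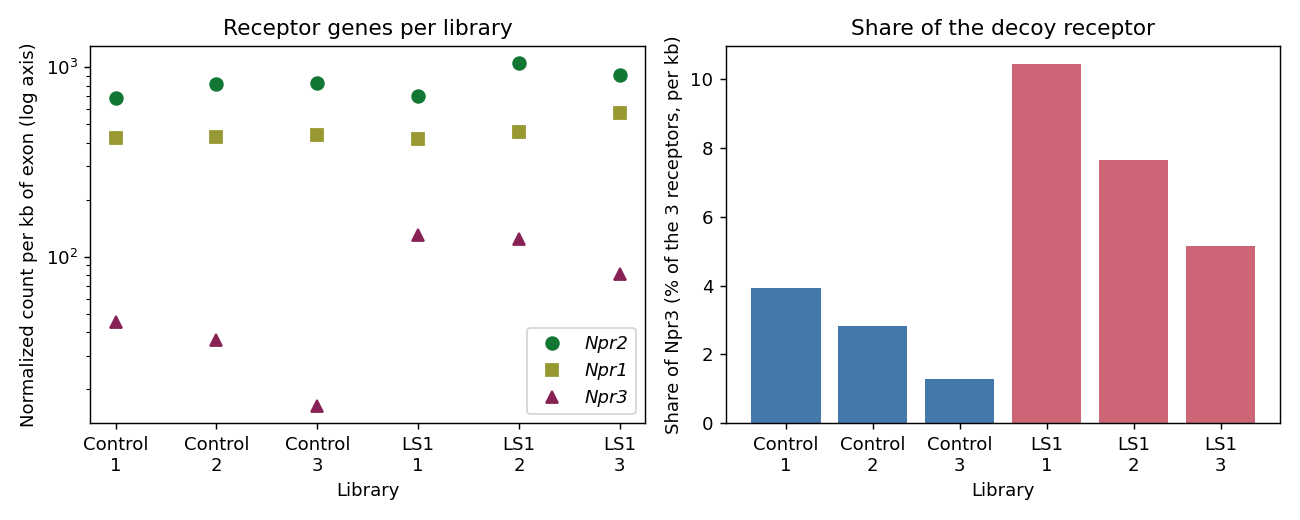
Left, normalized counts per kb of exon for the 3 receptor genes in each library, on a log axis. Right, the share of *Npr3* in the sum of the 3 receptors (bars, in percent, from 0), which runs from 1.27% to 3.94% in Control and from 5.15% to 10.4% in LS1.

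Markers of cartilage and other tissues were then counted in the same libraries. Of 18 chondrocyte markers, 15 had higher means in LS1 (median log2 fold change 0.44), and the summed normalized counts were 2657340 to 3016190 in Control and 3369900 to 3891460 in LS1. With limma 0 of the 18 passed the adjusted threshold and 9 had an unadjusted p-value under 0.05, while 6 passed with DESeq2. Tendon and ligament markers, of which 4 of 5 had higher means, summed to 4475 to 5109.6 in Control and 6089 to 11429.8 in LS1. Both sums were without overlap, and no marker of either list was at 0 in any library. *Npr3* was therefore also set against the mean log2 level of these markers in the same library. Relative to chondrocyte markers its log2 level was higher in LS1 by 1.51 (exact two-sided permutation test, p = 0.1, the smallest possible), and relative to tendon and ligament markers by 1.18 (exact permutation p = 0.1). In both scales all LS1 libraries stayed above all Control libraries. On both scales *Prkg1* and *Prkg2* overlapped between the groups, with differences of 0.28 and 0.22 relative to chondrocyte markers and of -0.058 and -0.11 relative to tendon and ligament markers. The differences of *Npr1*, *Npr2* and *Furin* turned negative on both, to -0.20, -0.17 and -0.30 relative to chondrocyte markers and to -0.54, -0.51 and -0.64 relative to tendon and ligament markers. *Nppc* stayed positive, at 0.54 and 0.20, with overlap. *Ostn* was at -0.72 and -1.06, and its LS1 libraries were all below its Control libraries on both scales, as were those of *Furin* relative to tendon and ligament markers. Both marker means were themselves higher in LS1, that of chondrocyte markers by 0.36, so each scale lowers the difference of every gene by the same amount. The turn of *Npr1*, *Npr2* and *Furin* to negative values followed from this shift. The share of all genes tested without overlap on these scales was not counted. Erythroid markers, of which 10 of 10 had lower means in LS1, summed to 1812880 to 2326790 in Control and 991257 to 1216810 in LS1, and 8 of 9 B cell markers were lower, with sums of 48421 to 52480.4 and of 30005 to 47601. Macrophage markers had higher means in LS1 for 8 of 8 (median log2 fold change 0.26), and interferon-stimulated genes for 11 of 11 (median 1.55), with overlapping sums in both lists. The interferon-stimulated genes summed to 18893, 12081 and 10979 in Control and to 30269, 54013.5 and 13849 in LS1. LS1 replicate 3 was thus the lowest LS1 library for this sum as it was for *Npr3*. This was not particular to the interferon-stimulated genes. The same library was lowest in LS1 for the chondrocyte and the tendon and ligament sums, and for 5 of the 8 genes. The highest LS1 library was replicate 2 for the interferon-stimulated sum and replicate 1 for *Npr3*. No marker of these lists was at 0. Their part in the values of the 8 genes was not tested.

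The genes on either side of *Npr3* were compared between the lines in the same fit. Of 39 other genes annotated within 1 Mb, 11 passed the filter on reads. The median of their log2 fold changes was 0.11 and the range -0.36 to 0.99. With limma 0 of the 11 passed the adjusted threshold, and the unadjusted p-value was under 0.05 for 1, near the share of 12.9% among all genes tested. That gene was *C1qtnf3*, which encodes the cartilage protein cartducin and ends 859.7 kb away. It had 19416, 17559 and 15864 normalized counts in Control and 44731, 34916 and 27159 in LS1, a log2 fold change of 0.99 (SE 0.18, limma adjusted p = 0.105). The nearest tested gene on the upstream side was *Sub1*, 74.1 kb away, and on the downstream side *Tars*, 440.2 kb away, with log2 fold changes of 0.23 (limma adjusted p = 0.530) and 0.26 (limma adjusted p = 0.421). *Npr3* and *C1qtnf3* were thus separated by tested genes with smaller differences.

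**Figure D4:**
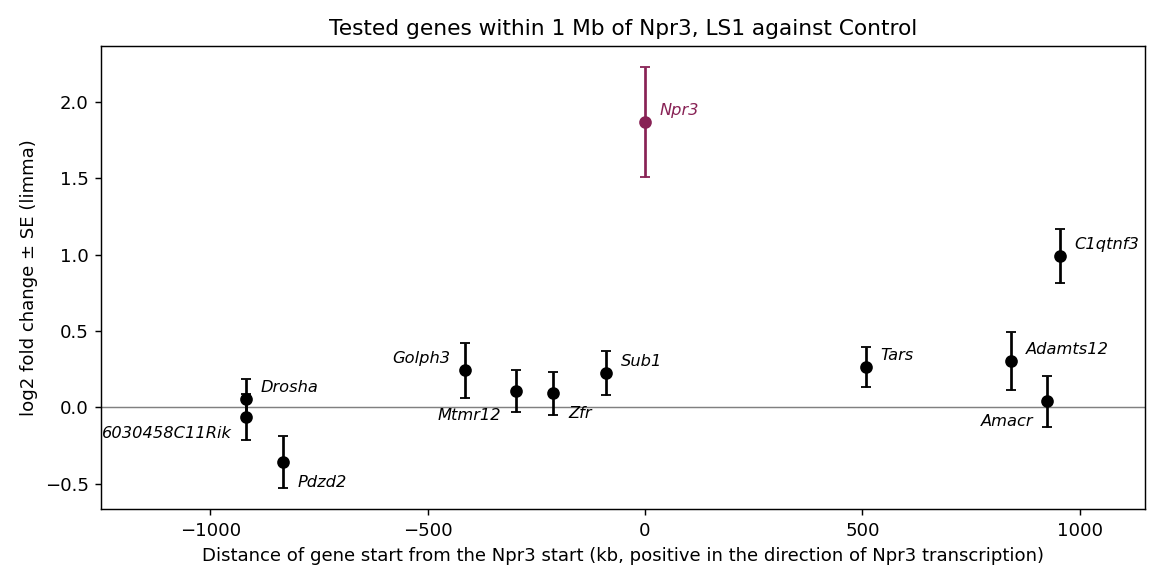
The log2 fold change between LS1 and Control with its SE from limma (y axis) for *Npr3* and the 11 other tested genes within 1 Mb, by the distance of their starts from that of *Npr3* in kb (x axis). *Npr3* at 1.87 and *C1qtnf3* at 0.99 lie above the other genes, which run from -0.36 to 0.30.

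The 5 tested genes with the pattern most like that of *Npr3*, by the root mean square difference of log2 levels over the 6 libraries after subtraction of the Control mean, were *Gm37589* (0.27), *Samd3* (0.30), *Sh2d1a* (0.34), *Gm23136* (0.37) and *Sostdc1* (0.39). All 5 had mean normalized counts under 100 in both groups, so their values carry wide counting errors. They were picked for this pattern, so higher levels in LS1 followed from the choice. Their log2 fold changes ran from 1.49 to 1.98. *Sostdc1*, the least alike of the 5, had 41.4, 35.5 and 21.02 normalized counts in Control and 109, 76.6 and 87.7 in LS1. Its log2 fold change was 1.49 (SE 0.36, limma adjusted p = 0.194).

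The wider pathway was described with 5 lists that share no gene with the 8 above. Of 59 genes listed, 58 were matched to the table and 56 tested. With limma, 0 of the 56 passed the adjusted threshold in either direction and 2 had an unadjusted p-value under 0.05, both with a higher mean in LS1, against 12.9% of all genes in either direction and 7.08% with a higher mean. The adjusted count was also 0 with DESeq2, edgeR and limma-voom. The median log2 fold change was 0.085 over the 56 genes, with 33 above 0 and 23 below.

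Among 6 tested genes for other ligands, processing and clearance, 3 were above 0 and 3 below, with a median of 0.054. The atrial and brain peptide genes *Nppa* and *Nppb* had a mean of 3 reads and 1 read per library and were not tested. *Mme*, which encodes neprilysin, the main protease that degrades natriuretic peptides, had the highest log2 fold change of this list at 0.25 (limma adjusted p = 0.606). *Corin*, whose product activates the atrial peptide, had the lowest at -0.61 (limma adjusted p = 0.658), with 19.6 normalized counts in LS1 replicate 3 against 65.7 to 110.5 in the other 5 libraries.

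The 18 tested genes for synthesis, hydrolysis and export of cyclic GMP were split 9 to 9, with a median of -0.013. The ends of the list were *Gucy1a2*, a subunit of the nitric oxide-sensitive cyclase, at 0.94 (SE 0.69, limma adjusted p = 0.594), and *Pde1a*, a calcium-dependent phosphodiesterase, at -0.44 (SE 0.21, limma adjusted p = 0.399). *Gucy1a2* had a mean of 21.2 reads per library. *Pde1a* had 1384, 1092 and 999 normalized counts in Control and 824, 1057 and 692 in LS1.

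Of 10 genes for kinase substrates and effectors, 7 were above 0, with a median of 0.13. *Kcnma1*, which encodes a potassium channel that cyclic GMP-dependent kinase can open, had the highest value and 1 of the unadjusted p-values under 0.05. It had 1905.0, 1512 and 1302 normalized counts in Control and 2125, 2257 and 1893 in LS1, a log2 fold change of 0.43 (SE 0.17, limma adjusted p = 0.337). LS1 replicate 3 lay just under Control replicate 1. The lowest value was -0.26 for *Hspb6* (limma adjusted p = 0.698), a small heat shock protein phosphorylated by cyclic nucleotide-dependent kinases.

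CNP is known to oppose the signal of fibroblast growth factor receptor 3 to MAP kinases. Of the 17 genes of that arm, 11 were above 0, with a median of 0.082. The highest was *Map2k1*, a kinase upstream of ERK, at 0.27 (SE 0.13, limma adjusted p = 0.395), with 4744, 4836 and 5275 normalized counts in Control and 5543, 6335 and 6044 in LS1. The lowest was *Hras* at -0.32 (limma adjusted p = 0.518). Of the 5 genes for G protein coupling of the clearance receptor, *Gnai3*, which encodes an inhibitory G protein subunit, had the other unadjusted p-value under 0.05. Its normalized counts were 13863, 11777 and 11272 in Control and 17418, 14835 and 14754 in LS1, with no overlap and a log2 fold change of 0.35 (SE 0.14, limma adjusted p = 0.318). *Gnai2* was lowest in that list at -0.044 (limma adjusted p = 0.929).

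**Figure D5:**
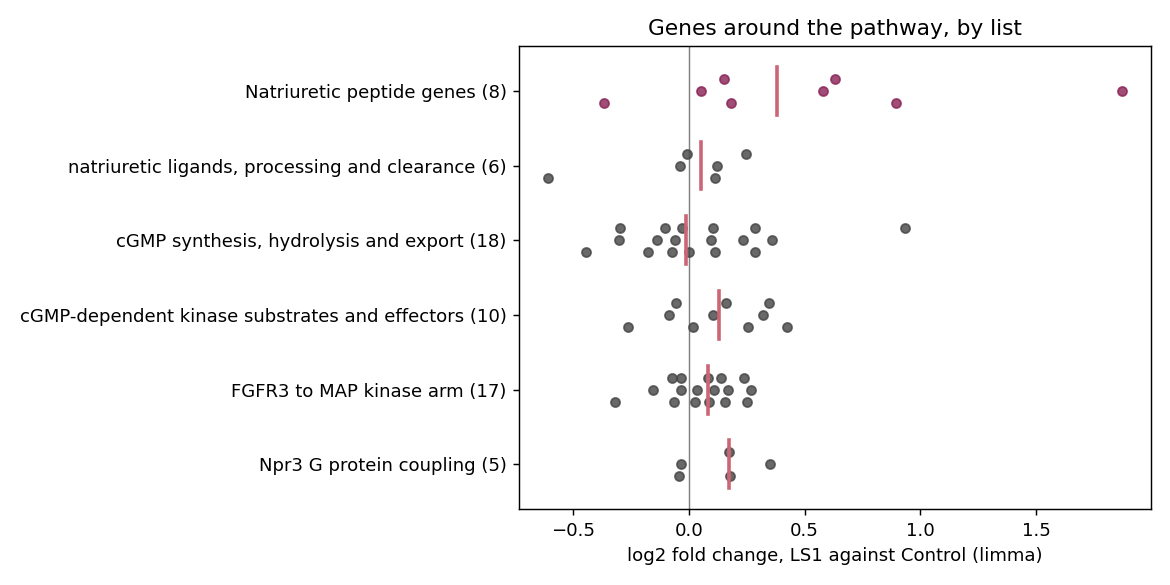
The log2 fold change between LS1 and Control from limma (x axis) for each of the 8 natriuretic peptide genes and the tested genes of the 5 pathway lists, 1 point per gene, with the number of genes in brackets and the median as a red line. The medians of the 5 lists lie between -0.013 and 0.17, and *Npr3* at 1.87 lies to the right of every other gene.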

How the data were processed

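Per the labels and the study's methods, reads of polyadenylated RNA were mapped to GRCm38 (Ensembl release 84) with HISAT2 2.0.2 and counted per gene with featureCounts 1.4.6, and DESeq2 was then used. The deposited values are a signal, made by the authors from read counts by division with a size factor for each library. Reads were recovered by dividing by the value of 1 read, and 100% of values came out whole within 0.001. In Control replicate 1 this value (1.01) was close to 1, so DESeq2 and edgeR were also run without that library. Its size factor recomputed from the recovered reads was 0.991, equal to the inverse of the value of 1 read. Limma 3.58.1 in R 4.3.3 was run on log2(value + 1) with a mean-variance trend and robust moderation, for genes averaging 20 or more recovered reads, and Benjamini-Hochberg adjustment over all of them (threshold 0.05). DESeq2 1.42.0, edgeR 4.0.16 and limma-voom on recovered reads were alternatives, as were other scalings, filters, pseudocounts and each library left out. Scripts were tested on simulated data. GENCODE M21 (GRCm38) gave names, exon lengths and coordinates (98.9% of identifiers matched), and its transcripts gave the sequences. The genes and lists were chosen with earlier results of these data known. Genes named were the 8 themselves, per pathway list the highest and lowest fold change and each unadjusted p under 0.05, the nearest neighbours of *Npr3*, and the 5 most like it. With 3 mice per group, exact permutation tests cannot go below p = 0.1. Mice were taken as separate biological replicates, as labelled. The design had no batch label.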

Additional observations from a re-analysis of the deposited data

How the results depend on the processing

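*Npr3* kept its direction in all 24 alternatives, with log2 fold changes from 1.43 to 2.17 and adjusted p-values from limma with 1 library left out from 0.0298 to 0.333. The number of the 8 genes past the threshold was 1 with DESeq2 and without LS1 replicate 3, 1 to 2 with DESeq2 and 1 library left out (*Prkg2* without LS1 replicate 3), and 0 in the other alternatives apart from the block given below. The *Furin* value reversed without LS1 replicate 2 and LS1 replicate 3, to -0.018 and -0.037 with limma (up to 0.21 without LS1 replicate 1) and -0.011 and -0.028 with DESeq2. Of all genes tested, 14 passed with limma, 459 with DESeq2, 7 with edgeR (5 without Control replicate 1), 8 with limma-voom, 45 with no filter, 9 with at least 100 reads, and 3 without trend and robust moderation. With 1 library left out limma called 5 (without Control replicate 2) to 324 genes (without LS1 replicate 3), and DESeq2 242, 157 and 250 without Control replicates 1, 2 and 3 and 624, 285 and 992 without LS1 replicates 1, 2 and 3. The DESeq2 and edgeR fits with a library left out, and the tendon list, were chosen after seeing the data. The cause of these differences was not tested.

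With the replicate number as a block, 12 genes passed with limma, *Npr3* among them (adjusted p = 0.0321 from limma, log2 fold change 1.87), so 1 of the 8 did. The numbers follow the order of the samples in the labels. Same-numbered mice also share the first letter of their titles (A, B or C), and the labels do not say what that letter marks, so a pairing was not established. Deviations of same-numbered libraries had correlations of 0.05, 0.02 and 0.22, and not every library correlated best with its own number. TMM scaling and total read scaling shifted the median of all genes by 0.011 and -0.011. *Nppc* had too few reads for the filter of 100.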
